A study of Homo sapiens with 4 samples.

Results

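The BH3-only genes of the BCL2 family encode the initiators of mitochondrial cell death, and 8 of them (BCL2L11, BID, BBC3, PMAIP1, BMF, BIK, HRK and BAD) were followed by symbol through an RNA sequencing table of 25277 symbols. The samples were 4 cultures of Mino and Z138, human cell lines derived from mantle cell lymphoma, a B cell cancer. The groups were Mino with a small hairpin RNA against BTK (shBTK), Mino with a control vector, Z138 with shBTK and Z138 with a control vector, with 1 library per group. Every culture was a stable line with a doxycycline-inducible vector and had received doxycycline for 48 hours, controls included. What the control vector (sc4) expressed, and whether a stable line was 1 clone or a pool, is not stated in the labels. The analysis holds a single hairpin, so effects of BTK loss and other effects of that hairpin cannot be told apart.

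BH3-only proteins share a short helix, the BH3 domain, with which they bind other BCL2 family proteins. Anti-apoptotic members such as BCL2, BCL2L1 (BCL-XL) and MCL1 hold BH3-only proteins and the pore formers BAX and BAK1 in check. When BH3-only proteins outnumber the free binding sites, BAX and BAK1 open the outer mitochondrial membrane, cytochrome c leaves, and caspases are activated. BCL2L11 (BIM), BID and BBC3 (PUMA) are known as activators that can engage BAX or BAK1 directly and bind all main anti-apoptotic proteins, whereas PMAIP1 (NOXA), BMF, BIK, HRK and BAD mainly displace partners from particular anti-apoptotic proteins. In B cells BIM is needed for the removal of self-reactive and surplus cells. ERK, which the B cell receptor can activate, is known to lower the BIM protein.

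The values are FPKM, fragments normalized to transcript length and to mapped fragments, so levels of different genes can be set side by side. Read depth is unknown, and with 1 library per group no value has a replicate error. BTK, the kinase downstream of the B cell receptor that the hairpin targets, was at 9.84 FPKM in the Mino shBTK library, against 37.0 FPKM in the Mino control, and at 12.4 FPKM in the Z138 shBTK library, against 51.0 FPKM in the Z138 control. The B cell receptor genes CD79A and CD79B were between 271 and 744 FPKM in all libraries, while the 4 myeloid markers were under 1 FPKM throughout. The 7 B cell markers examined reached down to 3.34 FPKM. That was CD22, at 5.96 and 3.34 FPKM in Z138 (shBTK and control) and at 102 and 107 FPKM in Mino (shBTK and control). The plasma cell marker SDC1 was at 43.3 and 54.4 FPKM in Z138 (shBTK and control) and at 8.35 and 8.81 FPKM in Mino (shBTK and control). Of the T cell markers, CD3E reached 2.07 FPKM in Z138 shBTK and 1.69 FPKM in Z138 control, whereas CD3D was under 0.2 FPKM and CD2 was listed at 0 in all libraries. In Mino the epithelial marker EPCAM reached 7.56 FPKM in Mino shBTK and 7.29 FPKM in Mino control. KRT18, also epithelial, was at 6.13 and 6.07 FPKM in Mino (shBTK and control), and the stromal gene COL1A1 at 3.57 and 4.55 FPKM. All of these were under 1 FPKM in both Z138 libraries, and PECAM1 was under 1 FPKM throughout. The part of these T cell, epithelial and stromal markers in the results was not tested. Of the markers that define mantle cell lymphoma, SOX11 was between 19.8 and 23.6 FPKM in all libraries, but CCND1 was at 600.5 and 591 FPKM in Z138 (shBTK and control) and only at 2.62 and 3.18 FPKM in Mino (shBTK and control).

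Promoter sequences are shown for a pair of members on which the results turn: BCL2L11, whose RNA was close to absent in one line, and PMAIP1, the most abundant member. Each covers 250 bases before to 50 bases after an annotated gene start and was taken from RefSeq on build GRCh38.p14, both on the plus strand, BCL2L11 at chr2:111120664-111120963 and PMAIP1 at chr18:59899746-59900045. Capitals mark the forkhead motif GTAAACA in BCL2L11 and the cyclic AMP response element-like letters ACGTCA in PMAIP1, each searched on both strands. These were chosen because FOXO factors are known regulators of BCL2L11 and because ATF4 and related factors are known to induce PMAIP1.
BCL2L11: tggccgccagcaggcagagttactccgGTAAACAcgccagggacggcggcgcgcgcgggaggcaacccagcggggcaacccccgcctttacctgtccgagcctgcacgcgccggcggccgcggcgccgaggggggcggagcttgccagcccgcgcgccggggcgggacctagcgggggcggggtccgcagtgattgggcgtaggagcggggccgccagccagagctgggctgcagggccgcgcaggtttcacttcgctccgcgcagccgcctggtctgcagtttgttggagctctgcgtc
PMAIP1: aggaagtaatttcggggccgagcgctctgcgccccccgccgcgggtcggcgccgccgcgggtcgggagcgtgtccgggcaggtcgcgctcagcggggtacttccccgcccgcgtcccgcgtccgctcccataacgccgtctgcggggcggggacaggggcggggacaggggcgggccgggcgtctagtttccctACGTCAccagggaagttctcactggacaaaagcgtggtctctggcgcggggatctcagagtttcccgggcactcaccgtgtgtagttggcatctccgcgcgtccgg
The forkhead letters occurred in 3.42% of 35116 annotated promoter windows of that length and the ACGTCA letters in 7.98%. Among the 7 members with a window, the forkhead letters were found only in that of BCL2L11, and ACGTCA in those of PMAIP1 and BAD. A match is a description of the sequence and no measurement of binding.

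The levels were examined first. PMAIP1 (NOXA, which mainly binds MCL1 and BCL2A1) was the most abundant of the 8 in all 4 libraries, with 506 FPKM in Mino shBTK, 594 FPKM in Mino control, 243 FPKM in Z138 shBTK and 204 FPKM in Z138 control. It made up 62.1% and 61.7% of the summed FPKM of the 8 genes in Mino (shBTK and control) and 69.6% and 66.9% in Z138 (shBTK and control). Its level exceeded that of 96.6% to 98.7% of the 11484 symbols that averaged 1 FPKM or more. BMF, which is held at the dynein light chain DYNLL2 until cells are stressed or detach, stood in the second place in Mino, with 123 FPKM in shBTK and 136 FPKM in control. In Z138 the second place belonged to BAD, with 37.2 FPKM in shBTK and 38.9 FPKM in control, and BMF was at 33.5 FPKM in shBTK and 27.4 FPKM in control. HRK, a BCL-XL binder best known from neurons, was the lowest member in Mino at 8.91 FPKM in shBTK and 9.18 FPKM in control. In Z138 the lowest was BCL2L11.

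**Figure D1:**
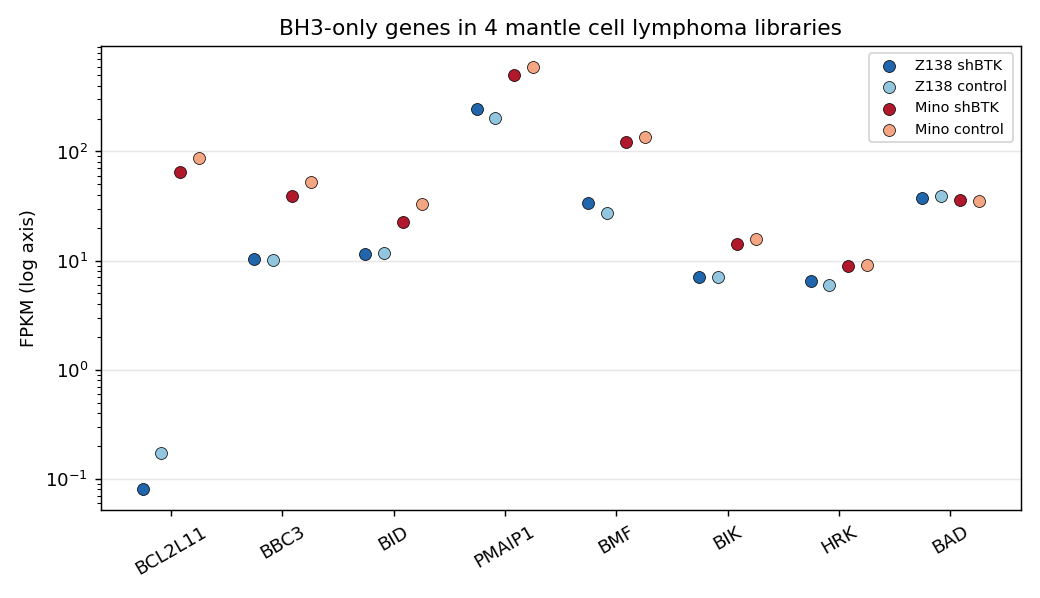
FPKM of the 8 BH3-only genes on a log axis, with 1 point per library and no error because each group had 1 library. BCL2L11 lies at 0.0803 and 0.172 FPKM in Z138 (shBTK and control) and at 65.3 and 87.1 FPKM in Mino (shBTK and control), whereas BAD lies between 35.4 and 38.9 FPKM in all 4 libraries.

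The lines were then compared, as Z138 against Mino over both vectors. BCL2L11 was at 0.0803 FPKM in Z138 shBTK and 0.172 FPKM in Z138 control, against 65.3 FPKM in Mino shBTK and 87.1 FPKM in Mino control. On the log2(FPKM + 1) scale the difference was −6.09, and Z138 was the lower line with either vector. Because the Z138 values are near 0, the size depends on the pseudocount: it was −6.93 with 0.5 and −8.41 with 0.1 in place of 1. This was the 9th lowest of 11484 differences; one of those below it, EEF1A1, came from a single listed 0. Of the 1505 symbols with at least 50 FPKM in both Mino libraries, 10 including BCL2L11 had a Z138 mean as low as that of BCL2L11 or lower. In Z138, 52.5% of the symbols of the whole table stood above BCL2L11 in shBTK and 49.8% in control. Most of the others were listed at 0, as 14953 of 25277 symbols were above 0 in shBTK and 15695 in control. Among the 11484 tested symbols, only 3.40% in Z138 shBTK and 3.92% in Z138 control were below BCL2L11. BCL2L11 entered the comparison only through its Mino values, so no test of it is given and its rank is only a description. In bulk RNA, fewer cells expressing a gene and less RNA per cell cannot be told apart, and gene copies were not measured.

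Of the 6 nearest measured named genes around BCL2L11 on chromosome 2, 3 were higher in Z138, 1 was lower and the others were too low to read. Over all tested symbols, 28.7% were called higher in Z138 and 38.8% lower. BUB1, a mitotic checkpoint kinase gene, was at 95.6 and 82.2 FPKM in Z138 (shBTK and control) and at 35.2 and 38.7 FPKM in Mino (shBTK and control). On the other side, the long noncoding RNA MIR4435-1HG was at 58.9 and 54.4 FPKM in Z138 (shBTK and control) and at 19.1 and 29.2 FPKM in Mino (shBTK and control); it has a near-identical copy, so its reads may be shared. Both were higher in Z138, with log2 differences of 1.24 for BUB1 (SE 0.13, limma adjusted p = 8.1e-05) and 1.23 for MIR4435-1HG (SE 0.17, limma adjusted p = 0.00038). ACOXL, the nearest gene upstream, was under 0.5 FPKM in all 4 libraries, too low in both lines for a difference to be read. ANAPC1, the next named protein-coding gene downstream, was also higher in Z138, at 12.3 and 10.2 FPKM (shBTK and control), against 6.50 and 6.28 FPKM in Mino (shBTK and control). MERTK, a receptor tyrosine kinase gene and the third on that side, was lower in Z138, at 0.611 and 0.612 FPKM (shBTK and control). In Mino it was at 1.99 and 2.04 FPKM (shBTK and control), a log2 difference of −0.90. It averaged 1 FPKM or more only through its Mino values, so no test of it is given. RGPD6 was listed at 0 in all 4 libraries.

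**Figure D2:**
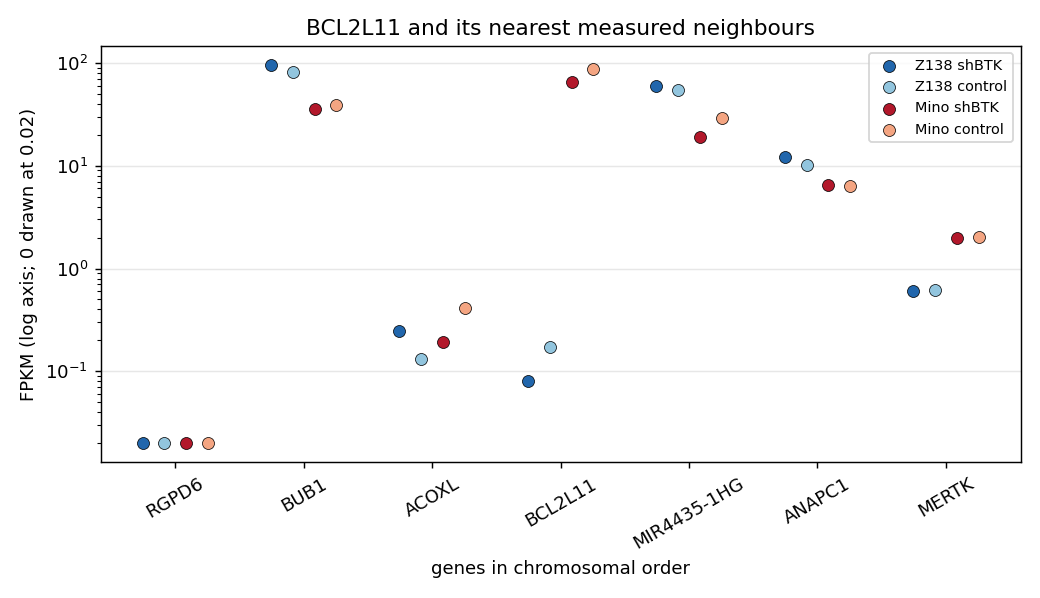
FPKM on a log axis of BCL2L11 and the nearest 3 measured named genes on each side, in chromosomal order, with 1 point per library and values of 0 drawn at 0.02. BUB1, MIR4435-1HG and ANAPC1 lie higher in Z138 than in Mino and MERTK lower, while BCL2L11 lies at 0.0803 and 0.172 FPKM in Z138 (shBTK and control).

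In the other members the lines differed less. BBC3 (PUMA, a known p53 target) was at 10.2 and 10.1 FPKM in Z138 (shBTK and control) and at 39.3 and 52.6 FPKM in Mino (shBTK and control), a log2 difference of −2.06 (SE 0.15, limma adjusted p = 8.4e-06). BMF differed by −2.06 (SE 0.14, limma adjusted p = 6.5e-06) and PMAIP1 by −1.30 (SE 0.14, limma adjusted p = 8.8e-05). Both Z138 values lay below both Mino values in these genes and in BID, BIK and HRK, but not in BAD. The same held for 48.8% of tested symbols. BCL2L11 is left aside here because it entered only through Mino.

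BID, which caspase 8 cleaves to link death receptors to mitochondria, was at 11.6 and 11.8 FPKM in Z138 (shBTK and control) and at 22.6 and 32.9 FPKM in Mino (shBTK and control), a log2 difference of −1.16 (SE 0.16). BIK, a BH3-only protein of the endoplasmic reticulum, was at 7.10 and 7.004 FPKM in Z138 (shBTK and control) and at 14.2 and 15.6 FPKM in Mino (shBTK and control), a log2 difference of −0.98 (SE 0.13). HRK differed by −0.47 (SE 0.14, limma adjusted p = 0.016) and did not pass when libraries were centred on their medians (adjusted p = 0.057). BAD, which growth factor kinases phosphorylate so that 14-3-3 proteins retain it, differed by 0.09 (SE 0.12, limma adjusted p = 0.51) and reversed to −0.02 when libraries were scaled to the same FPKM sum. Its values may share reads with GPR137, which overlaps it. BBC3, BMF, PMAIP1, BID, BIK and HRK were thus called lower in Z138, and BAD was not called in either direction. BCL2L11 is left out of these calls because it entered only through Mino. Over all tested symbols 38.8% were called lower and 28.7% higher. That excess of lower calls over all symbols (4452 lower and 3293 higher) turned when libraries were centred on their medians (3836 lower and 4179 higher). The median difference over all tested symbols was −0.12. The error in this test comes from how alike both vectors were, moderated over all tested symbols, and not from replicate cultures. It therefore leaves out how cultures of the same line vary.

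The hairpin was compared with the control next, which asks whether BH3-only RNAs change with BTK knockdown. None of the 8 genes passed in limma over both lines (0 higher and 0 lower, adjusted p = 1.00 for each), and in the main fit 0 had an unadjusted p under 0.05. Over all 11484 tested symbols 14 passed, which is 0.122% (0.061% in each direction), and 320 had an unadjusted p under 0.05, which is 2.79%. The mean log2 ratios of the 8 genes lay between −0.28 (BID) and 0.07 (BMF), with SEs from 0.12 to 0.16. That of BCL2L11, −0.26 (SE 0.14), takes in a Z138 ratio from values near 0. It was −0.50 (SE 0.18) at a pseudocount of 0.1 and −0.29 (SE 0.10) with GC content and length trends removed. A p that misses the threshold does not show that the genes are unaffected: the test had 1 residual degree of freedom per gene.

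Within Mino the activators had the lowest ratios. BCL2L11 was at 65.3 FPKM in shBTK and 87.1 FPKM in control, 75.1% of the control value and a log2 ratio of −0.41. BID was at 22.6 FPKM in shBTK and 32.9 FPKM in control, 68.5% of the control value and a log2 ratio of −0.53. BBC3 was at 39.3 FPKM in shBTK and 52.6 FPKM in control, 74.8% of the control value and a log2 ratio of −0.41. These 3 genes were at least 1.3-fold lower in Mino shBTK, a size chosen after the values were seen, where 3.84% of tested symbols were. At 1.5-fold 0 of the 8 genes were lower and 0 higher in Mino, where 1.24% of tested symbols were lower and 0.923% higher. Only 3.17%, 1.70% and 3.12% of tested symbols had a lower Mino ratio than BCL2L11, BID and BBC3.

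In Z138 the ratios of BID and BBC3 lay near 0. BID was at 11.6 FPKM in shBTK and 11.8 FPKM in control, a log2 ratio of −0.03. BBC3 was at 10.2 FPKM in shBTK and 10.1 FPKM in control, a log2 ratio of 0.02. With GC content and length trends removed, the Z138 ratio was −0.01 for BID and 0.11 for BBC3. The BCL2L11 values of 0.0803 FPKM in shBTK and 0.172 FPKM in control are too low for a ratio to be read from them. With BCL2L11 left aside, 0 of the other 7 genes were lower in Z138 at 1.3-fold, where 2.65% of tested symbols were, and at 1.5-fold 0 were lower and 0 higher, where 0.819% and 0.94% were. No difference of ratio between the lines was tested, because each line had 1 pair of libraries.

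PMAIP1 and BMF had ratios of opposite sign in the lines, below −0.1 in Mino and above 0.1 in Z138, a pattern held by 13.1% of tested symbols. PMAIP1 was at 506 FPKM in shBTK and 594 FPKM in control in Mino, a log2 ratio of −0.23, and at 243 FPKM in shBTK and 204 FPKM in control in Z138, a log2 ratio of 0.25. With GC content and length trends removed, its Z138 ratio was 0.10. BMF was at 123 FPKM in shBTK and 136 FPKM in control in Mino, a log2 ratio of −0.15, and at 33.5 FPKM in shBTK and 27.4 FPKM in control in Z138, a log2 ratio of 0.28, or 0.32 with those trends removed. Across 10477 genes the Z138 ratio went down with GC content of the transcript (Spearman rho −0.57, a description across genes of 1 pair of libraries), whereas the Mino ratio went slightly up with it (rho 0.11); the part of GC content in these results was not tested beyond the corrected ratios. The PMAIP1 transcript has 37.2% GC and that of BMF 54.8%, against a median of 48.7% over tested symbols.

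BIK, HRK and BAD had ratios between −0.13 and 0.11 in both lines. The log2 ratio of BIK was −0.13 for Mino and 0.02 for Z138, and that of HRK was −0.04 for Mino and 0.11 for Z138. With GC content and length trends removed, the Z138 ratio was 0.09 for BIK, 0.08 for HRK and 0.03 for BAD. BAD was at 35.7 FPKM in shBTK and 35.4 FPKM in control in Mino and at 37.2 FPKM in shBTK and 38.9 FPKM in control in Z138, the flattest profile of the 8. In total 7 of the 8 ratios were below 0 in Mino, where 51.9% of tested symbols were. With BCL2L11 left aside, the ratios of BID and BAD were below 0 in Z138, where 43.7% of tested symbols were. The median log2 ratio of all 8 genes, BCL2L11 included, was −0.19 in Mino and 0.02 in Z138, beside −0.01 and 0.03 over all tested symbols.

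**Figure D3:**
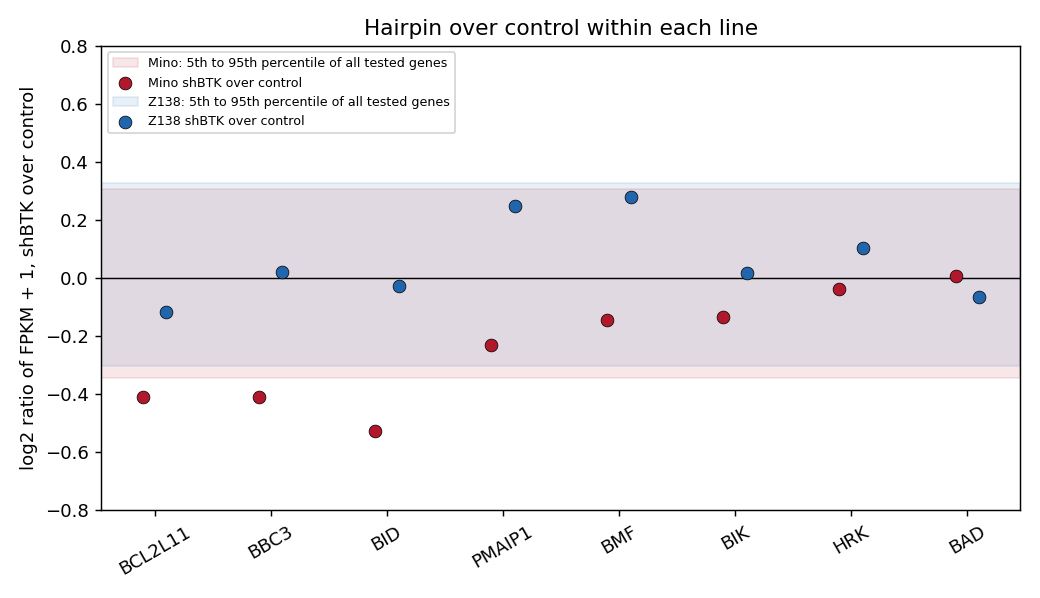
Log2 ratio of FPKM + 1, shBTK over control, for each BH3-only gene in Mino (red) and Z138 (blue), with shaded bands from the 5th to the 95th percentile of all tested symbols. BCL2L11, BBC3 and BID lie below the Mino band at −0.41, −0.41 and −0.53, and all Z138 points lie inside the Z138 band. The Z138 point of BCL2L11 comes from values too low for a ratio to be read. Its ratio was −0.59 at a pseudocount of 0.1.

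BH3-only levels were also set against their anti-apoptotic partners. BCL2 was at 297 FPKM in Mino shBTK and 491 FPKM in Mino control, and at 54.0 FPKM in Z138 shBTK and 61.2 FPKM in Z138 control. BCL2L11 amounted to 0.220 of BCL2 in Mino shBTK and 0.177 in Mino control, and to under 0.003 in both Z138 libraries. The BCL2 value thus differed more between the Mino libraries than that of BCL2L11 did. BMF amounted to 0.414 of BCL2 in Mino shBTK and 0.278 in Mino control, and to 0.619 in Z138 shBTK and 0.448 in Z138 control. PMAIP1 stood at 7.24 times MCL1 in Mino shBTK and 7.33 times in Mino control, and at 3.65 times in Z138 shBTK and 3.23 times in Z138 control. BAD, a partner of BCL2L1, amounted to 0.922 of it in Mino shBTK and 0.845 in Mino control, and to 1.505 in Z138 shBTK and 1.20 in Z138 control.

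The 8 BH3-only genes summed to 816 FPKM in Mino shBTK and 964 FPKM in Mino control, and to 349 FPKM in Z138 shBTK and 306 FPKM in Z138 control. The 6 anti-apoptotic genes summed to 420 FPKM in Mino shBTK and 635 FPKM in Mino control, and to 147 FPKM in Z138 shBTK and 159 FPKM in Z138 control. The ratio of the sums was 1.94 in Mino shBTK and 1.52 in Mino control, and 2.37 in Z138 shBTK and 1.92 in Z138 control, higher with the hairpin in both lines. Without BCL2 in the sum it was 6.65 in Mino shBTK and 6.70 in Mino control, so the direction in Mino rested on BCL2, and 3.75 in Z138 shBTK and 3.12 in Z138 control. Without PMAIP1 the BH3-only sum was 0.736 of the anti-apoptotic sum in Mino shBTK and 0.582 in Mino control, and 0.722 in Z138 shBTK and 0.636 in Z138 control. These ratios of RNA levels have no replicate and no test, and say nothing of protein amounts, which for MCL1 and PMAIP1 are known to depend on rapid turnover.

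**Figure D4:**
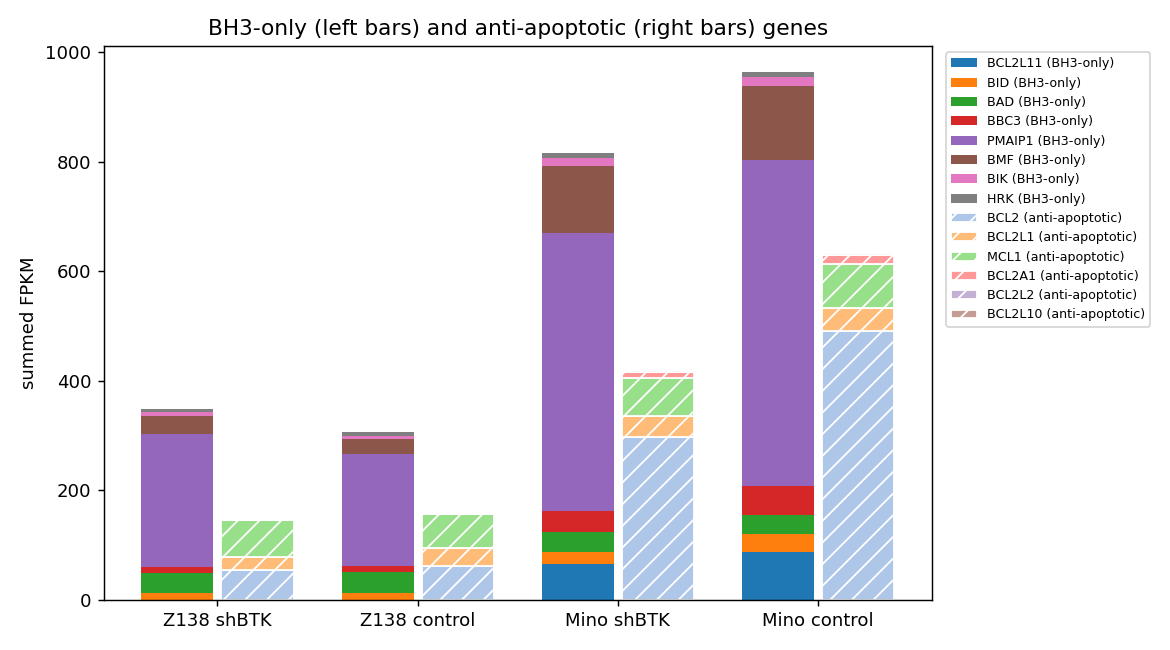
Summed FPKM of BH3-only genes (left, plain bars) and anti-apoptotic genes (right, hatched bars) in each library, divided by gene; the axis starts at 0. PMAIP1 fills 61.7% to 69.6% of the BH3-only bars, and BCL2 fills 36.7% and 38.4% of the anti-apoptotic bars in Z138 (shBTK and control), against 70.8% and 77.3% in Mino (shBTK and control).

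Genes that act with the BH3-only proteins were counted in 8 lists, and in none of them did a member pass the hairpin test in limma. An unadjusted p under 0.05 was seen for 1 anti-apoptotic gene, 1 BH3-like gene, 3 transcription factors and 1 p53 target, and for 0 members of the other lists, beside 2.79% of all tested symbols. Of 5 tested anti-apoptotic genes, 5 had a ratio below 0 in Mino and 3 in Z138, where 51.9% and 43.7% of tested symbols did. BCL2A1, a PMAIP1 and BCL2L11 partner induced by NF-kB, was at 0.0691 FPKM in Z138 shBTK and 0.0570 FPKM in Z138 control, against 11.1 FPKM in Mino shBTK and 15.8 FPKM in Mino control, a log2 difference of −3.74. Like BCL2L11, it passed the filter on low values only through Mino, so no test of it is given. BAX was at 120 and 129 FPKM in Mino (shBTK and control) and at 101 and 114 FPKM in Z138 (shBTK and control). The log2 ratio of BAK1 was 0.03 for Mino and −0.05 for Z138.

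Among 9 tested BCL2-related and BH3-like genes, BNIP3, a hypoxia-induced mitophagy receptor, showed a log2 ratio of −0.61 for Mino and −0.14 for Z138 (mean −0.37, SE 0.15, limma adjusted p = 1.00). Caspase, apoptosome and inhibitor genes had 0 of 19 members past 1.5-fold in either line. Of all tested symbols, 1.24% were lower and 0.923% higher by that size in Mino, and 0.819% and 0.94% in Z138. CFLAR, the caspase 8 inhibitor FLIP, was at 28.1 and 40.1 FPKM in Mino (shBTK and control) and at 14.8 and 15.0 FPKM in Z138 (shBTK and control), a profile close to that of BID.

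Of 21 tested transcription factors known to act on BH3-only genes, 0 passed. DDIT3 (CHOP), a stress factor known to induce BCL2L11 and BBC3, was at 150.2 FPKM in shBTK and 111 FPKM in control in Mino and at 134 FPKM in shBTK and 115 FPKM in control in Z138, log2 ratios of 0.43 and 0.21. ATF3 had ratios of 0.44 in Mino and 0.18 in Z138, and ATF4, known to induce PMAIP1, had 0.21 and −0.06. JUN, a component of AP-1 that is known to induce BCL2L11 in neurons, was at 8.40 FPKM in shBTK and 16.9 FPKM in control in Mino, and was under 1 FPKM in both Z138 libraries. FOXO1 and FOXO3, chosen here as the known forkhead regulators of BCL2L11 and named outside the rule, showed log2 ratios of −0.22 and −0.16 within Mino and of 0.29 and 0.20 within Z138. FOXO4, the other FOXO gene on the list, showed −0.22 within Mino and −0.08 within Z138. The ratios of listed genes were not corrected for GC content, with which the Z138 ratio went down across genes.

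The 30 tested genes whose products hold, modify or degrade BH3-only proteins showed a median log2 ratio of −0.07 for Mino and 0.06 for Z138. PIM2, a kinase that phosphorylates BAD, was at 498 and 533 FPKM in Mino (shBTK and control) and at 169 and 189 FPKM in Z138 (shBTK and control). DYNLL1, a dynein light chain that binds BCL2L11, was at 160 and 144 FPKM in Mino (shBTK and control) and at 350.1 and 360.4 FPKM in Z138 (shBTK and control). The 18 tested p53 targets outside the family showed a median of −0.14 for Mino and 0.03 for Z138. PLK3, a stress kinase, had −0.55 in Mino and −0.22 in Z138 (mean −0.38, SE 0.14, limma adjusted p = 1.00), and SESN2, which ATF4 also induces, had 0.56 in Mino and −0.08 in Z138. Of the host genes of microRNAs, MIR17HG, the source of the miR-17-92 cluster known to repress BCL2L11, was at 0.842 and 0.771 FPKM in Mino (shBTK and control) and at 1.41 and 1.36 FPKM in Z138 (shBTK and control). Processed microRNAs were not measured.

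**Figure D5:**
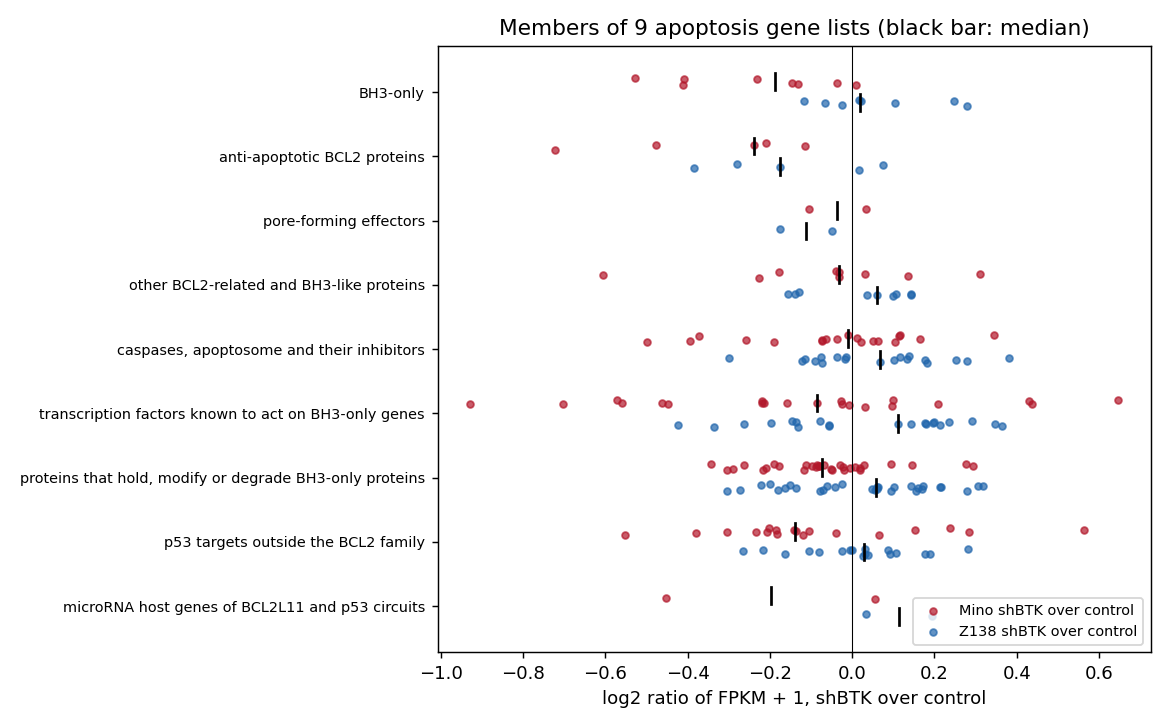
Log2 ratio of FPKM + 1, shBTK over control, for each tested member of the BH3-only genes and of the 8 lists around them, in Mino (red) and Z138 (blue), with medians as black bars. The BH3-only median, BCL2L11 included, is −0.19 in Mino and 0.02 in Z138, and no member of any list passed the test over both lines.

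Profiles over the 4 libraries were matched by Euclidean distance of log2(FPKM + 1) values, each gene centred on its mean, among 8171 genes that averaged 5 FPKM or more. The nearest to BCL2L11 were S100A10 (distance 0.054) and SCRN1 (0.21). S100A10 was at 57.8 and 77.4 FPKM in Mino (shBTK and control) and at 0 and 0.0350 FPKM in Z138 (shBTK and control). CFLAR was the nearest to BID (distance 0.043) and GRAMD4 to BBC3 (0.068). KDM6A was the nearest to PMAIP1 (0.040), STAP1 to BMF (0.068), ECH1 to BIK (0.029), SUN1 to BAD (0.011) and MRPL19 to HRK (0.0013). With 4 points per gene and a large line difference, such likeness is mostly likeness in how the lines differ.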

How the data were processed

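RNA from 4 cultures was extracted with a column kit, and libraries were prepared with the TruSeq RNA chemistry of Illumina, per the labels' protocols. The authors deposited 1 table of FPKM values with a column per library, per the file headers. TopHat and hg19 are named in the submitters' processing notes; which program gave the FPKM, and with which annotation, is not stated there. Read depth is unknown, so no counting interval is given, and an exact 0 can be a failed estimate.

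Values were analysed as log2(FPKM + 1), which understates changes of low genes, for 11484 symbols averaging 1 FPKM or more. All 8 members passed this filter, and none was listed at 0. limma 3.58.1 in R 4.3.3 fitted line and hairpin as additive terms with a mean-variance trend, and p-values were Benjamini-Hochberg adjusted over all tested symbols at 0.05. The line named in the labels paired each hairpin library with its control. The fit left 1 residual degree of freedom per gene, so p-values measure only how alike both pairs were. Within a line, ratios are descriptive.

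GC content and length came from the longest GENCODE 29 transcript of each symbol (93.9% matched); trends were natural cubic splines with 5 degrees of freedom, fitted to ratios limited to 1 either way. Neighbours came from RefSeq on GRCh38.p14, and 1 symbol on a list was matched by an older name. Alternatives were pseudocounts, filters, scalings, the trend correction, genes listed at 0 left out, no line term, and each pair left out. Named genes were the 8 members, BTK, and from each list the 2 most abundant, the 3 with the largest mean ratio at 5 FPKM or more, and any that passed; of these, those with the clearest roles are described. The members and lists were chosen with earlier results of these data known.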

Additional observations from a re-analysis of the deposited data

Results flagged for a closer look

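PMAIP1 and BMF had hairpin ratios of opposite sign in the lines, each at least 0.1 from 0 on the log2 scale. For PMAIP1 the Z138 ratio of 0.25 exceeded the Mino ratio of −0.23 by 0.48. In BMF the Z138 ratio of 0.28 exceeded the Mino ratio of −0.15 by 0.43. The difference was not tested, because a line held a single pair, and 13.1% of tested symbols were likewise lower in Mino shBTK and higher in Z138 shBTK by that size. With GC content and length trends removed, the Z138 ratio was 0.10 for PMAIP1 and 0.32 for BMF.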

How the results depend on the processing

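No BH3-only gene passed the hairpin test under any of 9 alternative fits (lowest adjusted p = 1.00 in limma). Over all symbols, 7 passed as higher and 7 as lower. The counts were 0 higher and 2 lower with no filter on low values, 3 higher at a mean of at least 5 FPKM, 27 higher and 15 lower with libraries centred on their medians, 1 higher with GC and length trends removed, and 22 higher without genes listed at 0. Without the line as the replicate block, 0 passed as higher and 0 as lower (9 had an unadjusted p under 0.05). The causes of these shifts were not tested. Mean hairpin ratios near 0 changed sign in some settings: BAD was 0.020 with GC and length trends removed, and PMAIP1 was −0.063 in that setting and −0.0045 with libraries centred. With 1 line's pair left out, the mean ratio ran from −0.065 to 0.0081 for BAD, from −0.41 to 0.021 for BBC3, from −0.23 to 0.25 for PMAIP1, from −0.15 to 0.28 for BMF, from −0.13 to 0.018 for BIK and from −0.038 to 0.11 for HRK. Between the lines, BAD alone changed sign (−0.020 with libraries scaled to the same sum) and HRK alone lost its call (adjusted p = 0.057 with libraries centred). Without BCL2, the ratio of BH3-only to anti-apoptotic sums was 6.65 in Mino shBTK, 6.70 in Mino control, 3.75 in Z138 shBTK and 3.12 in Z138 control. With 1 library per group and unknown depth, low values have no error: the BCL2L11 ratio in Z138 was −0.12, and −0.59 at a pseudocount of 0.1. Its difference between the lines was −6.09, and −6.93 and −8.41 at pseudocounts of 0.5 and 0.1.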
